A study of Mus musculus with 12 samples.

Results

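The interaction of Lyl1 loss and Scl loss was measured by RNA sequencing as the effect of losing Lyl1 where Scl is lost, minus the effect of losing Lyl1 where Scl is present. It asks for which genes the double loss was more or less than the sum of the single losses on the log2 scale. All 12 libraries of the series entered, chosen by title into a 2 by 2 design of 3 wild-type libraries, 3 of a Lyl1 knockout (KO), 3 of an Scl KO and 3 of a double KO of both genes (LYL1 SCL DKO in the labels). Of 49671 genes in the table, 15399 were tested and 1444 had a called interaction, that is, a Benjamini-Hochberg adjusted p under 0.05 in edgeR's quasi-likelihood F-test. Where no other tool is named, an adjusted p comes from this F-test. The labels describe the source of all groups as pools of mouse embryos at embryonic day 9.5, and give no strain, allele, Cre driver or pool size. By its title, the series asks what Lyl1 does in primitive red cell formation.

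Lyl1 and Scl (gene symbol Tal1) encode closely related basic helix-loop-helix transcription factors. Each pairs with an E protein to bind E-box sequences, and in blood cells works in complexes with the bridging proteins Lmo2 and Ldb1 and with GATA factors. Scl is needed for the onset of blood formation in the embryo and takes part in the maturation of red cells and of megakaryocytes, the cells that shed platelets, while Lyl1 is known to cover for part of its function in some blood cells.

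Total counts per library lay between 24324685 and 29212443. Levels are given as CPM, read counts scaled to the total of each library with TMM factors, as mean ± SD over n = 3 libraries where summed up, and changes as log2 values ± standard error. The titles call each library a Bio Rep and do not say whether litters were separate, and the p-values cover the spread between these libraries. Several measurements went against the label of a pool of whole embryos. Of 53 markers of heart, neural tissue and somites, 11 reached 1 CPM in any library, and the embryonic globin Hbb-bh1 had group means between 0.191 and 1.35 CPM. The 28 megakaryocyte and platelet markers took 3.04% to 10.1% of all counts. Y-linked transcripts were present in 3 libraries, those of Lyl1 KO 3 and of double KO 1 and 2, and near absent in the other 9, and those 3 held almost no Xist. In bulk RNA, fewer cells of a type and less RNA per cell cannot be told apart.

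Neither targeted gene had a called interaction. Lyl1 (ENSMUSG00000034041, chromosome 8, 84701457 to 84704715, GRCm38) was at 203, 192 and 149 CPM in the wild-type libraries, 90.4, 87.4 and 85.5 CPM in Lyl1 KO, 210.3, 198 and 118 CPM in Scl KO and 88.3, 108 and 56.5 CPM in the double-KO libraries. Its log2 interaction was -0.02 ± 0.34 (adjusted p = 0.984), with 87.7 ± 2.46 CPM remaining in Lyl1 KO and 84.1 ± 25.8 CPM in the double KO. From wild type to Lyl1 KO this lower level was not called (adjusted p = 0.286), and from Scl KO to the double KO it was (adjusted p = 0.0097). The allele is not in the labels, so Lyl1 loss in the text means what the titles state. Tal1 (ENSMUSG00000028717, chromosome 4, 115056426 to 115071755) was at 559, 643 and 513 CPM in the wild-type libraries, 619, 542 and 575 CPM in Lyl1 KO, 118, 117 and 93.4 CPM in Scl KO and 100.4, 100.1 and 77.7 CPM in the double-KO libraries. Every library labelled Scl KO or double KO lay below every other library, and the log2 interaction of Tal1 was -0.26 ± 0.20 (adjusted p = 0.465).

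Few genes were called between libraries with and without the Lyl1 KO label where Scl was present, and many where it was absent. Against wild type, 11 genes were called in Lyl1 KO (0.0714% of genes tested), of which 10 lie on chromosome 8, the chromosome of Lyl1. Against Scl KO, 2947 were called in the double KO (19.1%). The difference between these effects was called for 1444 genes (9.38%), of which 903 lay below the additive value (5.86%) and 541 above it (3.51%). At an unadjusted p under 0.05 there were 3740 genes. Of the 1444 genes, 1283 (88.9%) had a Lyl1 effect under 1.5-fold in the presence of Scl, and 1345 (93.1%) were called in the double KO against Scl KO. Among the 903 genes the median Lyl1 effect was 0.11 on the log2 scale with Scl and -1.0 without it. Among the 541 genes it was -0.19 with Scl and 1.09 without it. The median interaction of all genes tested was 0.042.

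**Figure D1:**
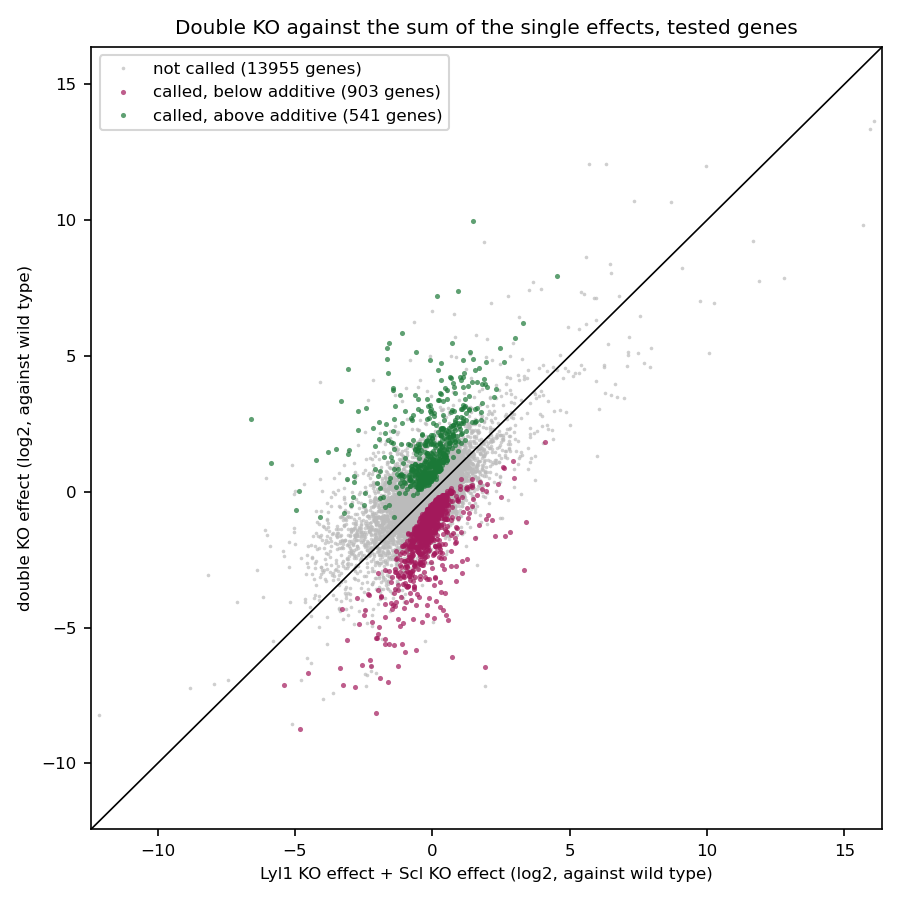
Each point is 1 of 15399 genes tested, with the sum of the Lyl1 KO and Scl KO effects on the horizontal axis and the double KO effect on the vertical axis, both as log2 values against wild type. The line marks additivity; 903 called genes lie below it and 541 above it, most of them at sums near 0.

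The count of called genes depended on the libraries. Without Lyl1 KO 1 it was 671, without Lyl1 KO 2 936, without Lyl1 KO 3 911, 684 and 740 without Scl KO 1 and 2, and 888 without double KO 2. With a term for the sign of the second principal component it was 3199, and with DESeq2's Wald test 2262. That component was computed from the same counts, and every Lyl1 KO library lay on its negative side. Its term thus overlaps in part with group, and calls gained with it are no independent support. In every one of these fits all 1444 genes kept the sign of their interaction. The 2947 genes of the double KO against Scl KO became 1645 without Scl KO 1 and 1692 without Scl KO 2. The 11 genes of Lyl1 KO against wild type became 41 without wild type 3, 7 when wild type 1 was left out, 6 when wild type 2 or Lyl1 KO 2 was, and 5 without Lyl1 KO 1.

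The called genes took several forms, described here with a margin of 1.5-fold. In 715 genes (485 down, 230 up) neither single loss reached the margin and the double loss did. In a further 293 (185 down, 108 up) at least 1 single effect reached the margin in the direction of the double effect, and the double effect exceeded the sum. Lyl1 loss had opposite effects in the presence and absence of Scl in 124 genes (42 down, 82 up). In 150 (87 down, 63 up) the double KO lay nearer to wild type than the sum of the single effects, on the same side of wild type or the other. A further 162 fell in none of these forms. On the linear CPM scale the departure had the same sign in 1436 of the 1444 genes, and the other 8 were all called below the additive value. All 3 double KO libraries lay below the other 9 in 824 of the 903 genes and above them in 466 of the 541, against 11.8% and 11.4% of all genes tested. The calls were made from the same libraries, so this separation follows largely from them and is no added support. In 50 called genes the Scl KO effect and the double KO effect both passed the margin in opposite directions. The forms moved with single libraries: the 1008 genes of the more than additive forms became 510 without Lyl1 KO 1, 647 without Lyl1 KO 3, 521 and 529 without Scl KO 1 and 2, and 650 without double KO 2. The 150 less than additive genes became 48, 72 and 75 without Lyl1 KO 1, 2 and 3, 56 and 73 without Scl KO 1 and 2, 71 without wild type 2 and 73 without double KO 2. The 124 with opposite Lyl1 effects became 70 without Lyl1 KO 1 or without Scl KO 1.

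Among megakaryocyte and platelet genes, the called interactions lay below the additive value. Of the 28 on the list, 15 were called (53.6%), each of them downward, against 5.86% of all genes tested, and 13 were not, and the median interaction was -1.37 on the log2 scale against 0.042 over all genes tested. The median effect of Lyl1 loss on the list was 0.06 with Scl and -1.27 without it. The count was 9 without wild type 1, 8 without Lyl1 KO 1, without Scl KO 1 or without Scl KO 2, 9 without double KO 2 and 24 without double KO 1, and it was 25 with the principal component term.

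Thbs1 (ENSMUSG00000040152, chromosome 2, 118111876 to 118127133) encodes thrombospondin 1, an adhesive protein of platelet alpha granules. It was at 19623, 21389 and 18232 CPM in the wild-type libraries, 22026, 19297 and 20373 CPM in Lyl1 KO, 7454, 5655 and 4251 CPM in Scl KO and 412, 432 and 378 CPM in the double-KO libraries. Wild type and Lyl1 KO overlapped, Scl KO lay below both, and every double KO library lay below Scl KO. Additive effects would have left 6026 CPM, and the observed level was 6.76% of that (log2 interaction -3.89 ± 0.28, adjusted p = 8.52e-05). P2ry12, the platelet ADP receptor targeted by clopidogrel, was at 167, 181 and 98 CPM in the wild-type libraries, 145, 102 and 105 CPM in Lyl1 KO, 109, 101 and 42.1 CPM in Scl KO and 8.17, 4.32 and 2.12 CPM in the double-KO libraries. The double KO libraries were the lowest, while the other 3 groups overlapped with each other, and the log2 interaction was -3.77 ± 0.62 (adjusted p = 0.00418). Slfn14, an endoribonuclease whose mutation causes an inherited platelet disorder, was at 292, 306 and 133 CPM in the wild-type libraries, 214, 165 and 159 CPM in Lyl1 KO, 96.3, 89.6 and 27.6 CPM in Scl KO and 4.12, 2.92 and 1.47 CPM in the double-KO libraries. Scl KO was below both groups that have Scl, and the double KO held 5.42% of the additive value (-4.21 ± 0.67, adjusted p = 0.00353).

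Gp1bb encodes a chain of the platelet receptor for von Willebrand factor. Its levels were 646, 728 and 774 CPM in the wild-type libraries, 966, 876 and 879 CPM in Lyl1 KO, 753, 643 and 601 CPM in Scl KO and 291, 188 and 151 CPM in the double-KO libraries, so Lyl1 KO was the highest group and the double KO the lowest. The Lyl1 effect was 0.34 ± 0.20 with Scl and -1.66 ± 0.21 without it, an interaction of -2.01 ± 0.29 (adjusted p = 0.00199). F2rl2, a protease-activated receptor that helps thrombin act on mouse platelets, was at 1662, 1895 and 1768 CPM in the wild-type libraries, 2165, 2047 and 1901 CPM in Lyl1 KO, 1321, 1227 and 1045 CPM in Scl KO and 477, 305 and 265 CPM in the double-KO libraries. It held 25.4% of the additive value in the double KO (-1.98 ± 0.28, adjusted p = 0.00184). Pf4, platelet factor 4, was at 3727, 4229.8 and 4934 CPM in the wild-type libraries, 4744, 4912 and 5231 CPM in Lyl1 KO, 3591, 3673 and 3742 CPM in Scl KO and 2542, 2047 and 2015 CPM in the double-KO libraries. The double KO lay below the other 9 libraries, and the interaction was smaller, at -0.94 ± 0.21 (adjusted p = 0.0163).

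**Figure D2:**
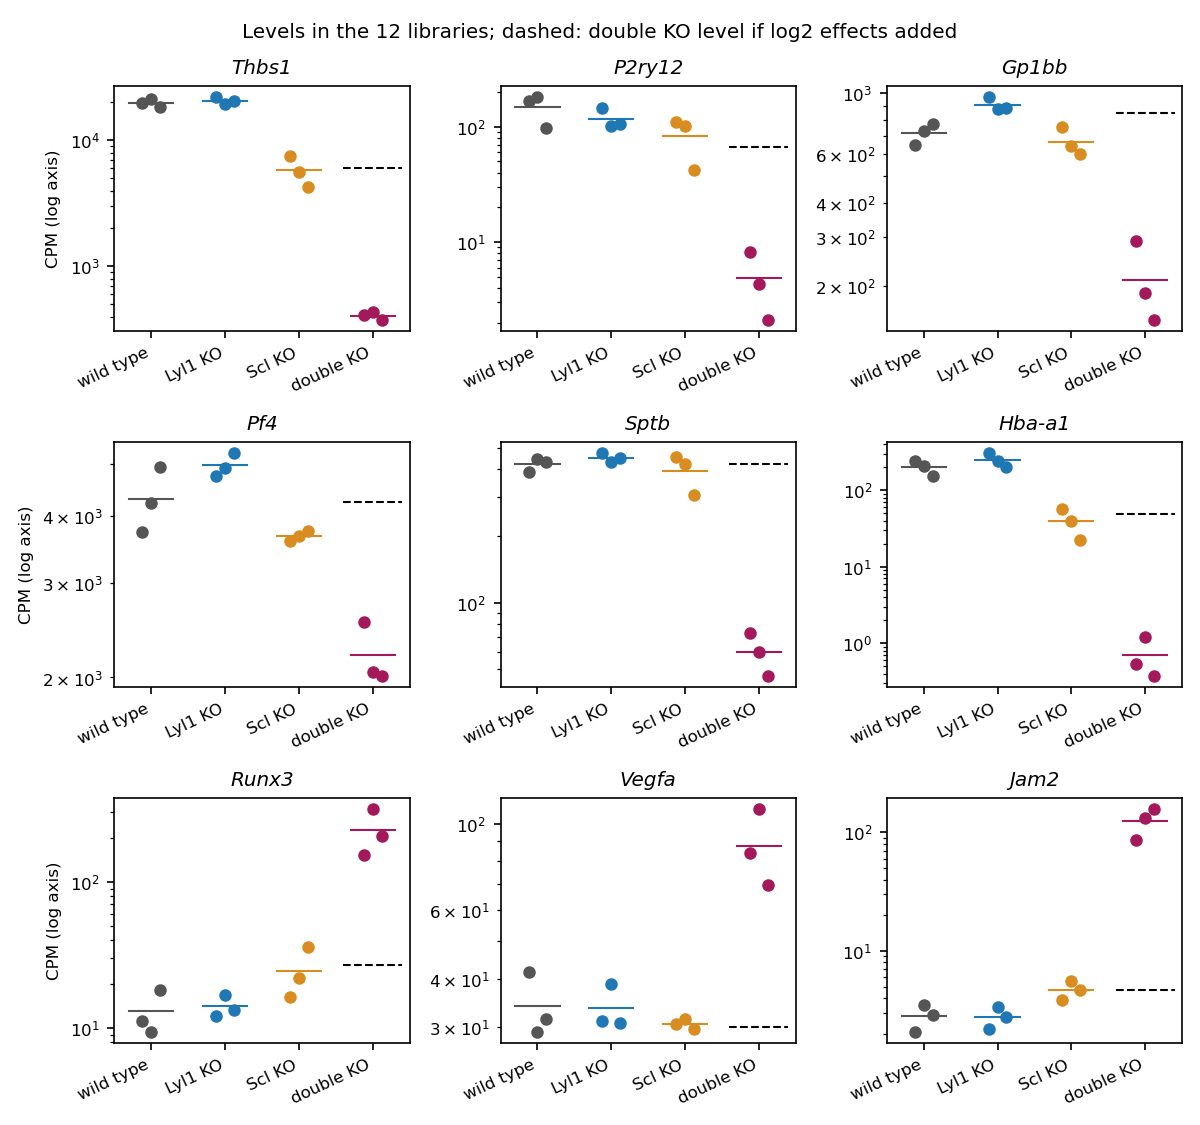
Levels in CPM on a log axis for 9 genes in the 12 libraries, with points for libraries, lines for group means and a dashed line for the double KO level expected if log2 effects added. The double KO points lie below the dashed line for Thbs1, P2ry12, Gp1bb, Pf4, Sptb and Hba-a1 and above it for Runx3, Vegfa and Jam2.

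Ppbp (pro-platelet basic protein), Tubb1 (the beta-tubulin of the platelet marginal band) and Vwf (von Willebrand factor) had called interactions of -1.78 ± 0.47, -3.03 ± 0.81 and -1.36 ± 0.38, with adjusted p of 0.0378, 0.0383 and 0.0439. Each of the 3 lost its call when any of 9 libraries was left out, namely any wild-type or Lyl1 KO library, Scl KO 1, Scl KO 2 or double KO 2, and the adjusted p then reached 0.0906, 0.0944 and 0.105. Without a filter on low counts Ppbp was at 0.0535 and Tubb1 at 0.153. Tubb1 was at 2470.0, 2247 and 1369 CPM in the wild-type libraries, 2504, 1825 and 1638 CPM in Lyl1 KO, 691, 627 and 286 CPM in Scl KO and 132, 43 and 17.7 CPM in the double-KO libraries. The spread within the double KO was wide, with the highest library more than 7 times the lowest. Mpig6b, Itga2, Gp5, Gucy1b1, Plek and the transcription factor Nfe2 were the other called members.

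The chains of the integrin that binds fibrinogen were not called. Itga2b and Itgb3 had interactions of -0.82 ± 0.26 (adjusted p = 0.0697) and -0.93 ± 0.29 (adjusted p = 0.068). Itga2b was at 7403, 7908 and 7367 CPM in the wild-type libraries, 9218, 7937 and 8055 CPM in Lyl1 KO, 6594, 6292 and 5324 CPM in Scl KO and 4759.7, 3839 and 2885 CPM in the double-KO libraries, and the double KO libraries were the lowest of the 12. DESeq2 called both chains (adjusted p = 0.0056 and 0.00502), as did edgeR with the principal component term (0.00523 and 0.00317) and without a filter on low counts (0.0481 and 0.0397). In all, each was called in 4 of 10 alternatives that kept every library, and not with RLE factors (0.0625 and 0.0619) or in limma-voom (0.0583 and 0.0567). With 1 library left out, each was called in 2 of 12 fits (adjusted p up to 0.163 and 0.156).

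**Figure D3:**
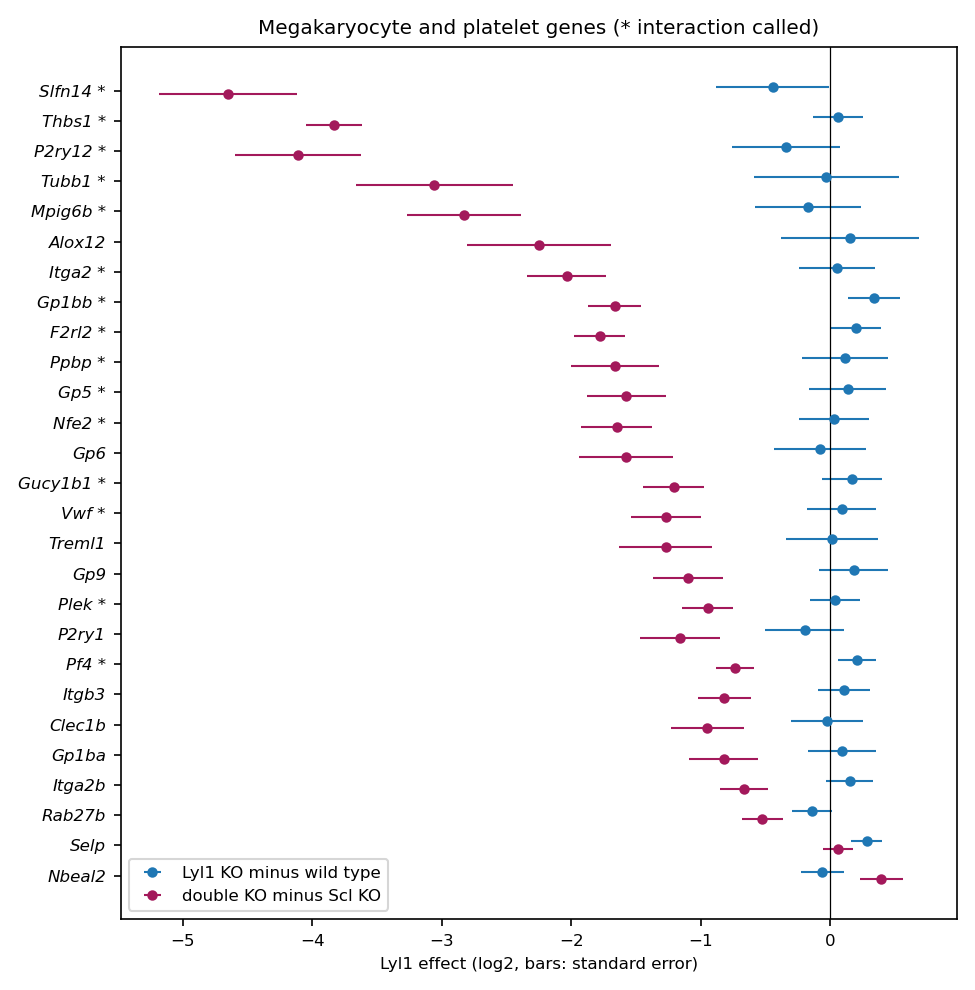
Lyl1 effect (log2 ± standard error) on 27 of the 28 megakaryocyte and platelet genes, in blue as Lyl1 KO minus wild type and in purple as double KO minus Scl KO. Asterisks mark the 15 called interactions; the blue points stay near 0 along the list while most purple points lie to the left.

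Genes of integrin activation and the platelet cytoskeleton were also called below the additive value. Of 25 tested, 15 were called (60%, against 5.86% of all genes tested), each downward, and 10 were not, with a median interaction of -0.96. The count was 5 without Lyl1 KO 1, without Scl KO 1 or without Scl KO 2, 6 without wild type 1, wild type 3 or Lyl1 KO 3, 7 without wild type 2 or double KO 2, and 9 without Lyl1 KO 2. Fermt3, the kindlin that switches on integrins in blood cells, was at 3417, 3613 and 3106 CPM in the wild-type libraries, 3917, 3477 and 3342 CPM in Lyl1 KO, 3548, 3232 and 2329 CPM in Scl KO and 1591, 1031 and 899 CPM in the double-KO libraries. Its interaction was -1.45 ± 0.31 (adjusted p = 0.014), and all double KO libraries were below the other 9. The alpha-tubulin gene Tuba4a was at 4051, 4203 and 3398 CPM in the wild-type libraries, 4721, 4263 and 3942 CPM in Lyl1 KO, 2536, 2327 and 1529.7 CPM in Scl KO and 841, 338 and 399.9 CPM in the double-KO libraries, with an interaction of -2.17 ± 0.43 (adjusted p = 0.0102). Was, the Wiskott-Aldrich syndrome protein that starts actin branching, and Bin2, a membrane-bending protein of platelets, had interactions of -1.30 ± 0.25 (adjusted p = 0.00935) and -1.02 ± 0.22 (adjusted p = 0.0171).

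Granule genes were called in both directions. Of 33 alpha and dense granule genes, 8 were called down (24.2%) and 2 up (6.06%), with a median of -0.36, against 5.86% and 3.51% of all genes tested. With the principal component term 15 were called down. The 8 became 5 without any 1 wild-type library, Lyl1 KO 2, Lyl1 KO 3 or double KO 2, and 4 without Lyl1 KO 1, Scl KO 1 or Scl KO 2. Tgfb1, the growth factor that platelets store in quantity, was at 1413 ± 42.8 CPM in wild type, 1522 ± 49.3 in Lyl1 KO, 1156 ± 143 in Scl KO and 572 ± 119 in the double KO (-1.12 ± 0.22, adjusted p = 0.00915). The genes called up were Vegfa and Slc18a2. Vegfa, the growth factor of vessels, was at 41.7, 29.2 and 31.5 CPM in the wild-type libraries, 31.1, 38.8 and 30.8 CPM in Lyl1 KO, 30.5, 31.5 and 29.6 CPM in Scl KO and 84, 109 and 69.4 CPM in the double-KO libraries. The 9 libraries outside the double KO overlapped and the double KO reached 291% of the additive value (1.54 ± 0.25, adjusted p = 0.00348). Slc18a2, the vesicular transporter that loads serotonin into dense granules, was at 219, 289 and 292 CPM in the wild-type libraries, 306, 294 and 330.2 CPM in Lyl1 KO, 185, 179.9 and 259 CPM in Scl KO and 448, 629 and 628 CPM in the double-KO libraries, and its interaction was 1.23 ± 0.25 (adjusted p = 0.0118).

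Of 36 genes of ITAM and G protein signalling in platelets, 7 were called (19.4%, against 5.86% of all genes tested), each downward, with a median of -0.53. The count was 4 without wild type 1, Lyl1 KO 1, Lyl1 KO 3, Scl KO 1 or Scl KO 2, and 15 without double KO 1. It was 20 with the principal component term and 13 in DESeq2. Beside P2ry12 and F2rl2 they included the thrombin receptor gene F2rl3 (-1.19 ± 0.26, adjusted p = 0.0157) and the Src-family kinase Fyn. Fyn was at 291, 315 and 261 CPM in the wild-type libraries, 298, 248 and 281 CPM in Lyl1 KO, 175, 167 and 141 CPM in Scl KO and 82, 79.5 and 83.1 CPM in the double-KO libraries, a stepwise pattern in which the double KO still lay at 53% of the additive value (-0.92 ± 0.16, adjusted p = 0.00535).

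The summed level of the megakaryocyte and platelet list moved with these groups. It lay between 95910 and 111400 CPM in wild type, 103200 and 119400 in Lyl1 KO, 60510 and 85120 in Scl KO, and 23360 and 44820 in the double KO. All 28 list members reached 1 CPM in some library and none was at 0 throughout. The part of this sum in the results above and below was not tested.

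Called genes of the red cell surface and membrane skeleton also lay below the additive value. Of 24 such genes, 18 were tested, 8 were called (44.4%, against 5.86% of all genes tested), each downward, and 10 were not, with a median of -1.01. The count was 5 without wild type 1, wild type 3, Lyl1 KO 1, Lyl1 KO 3 or Scl KO 3. Sptb, the beta-spectrin of the red cell skeleton, was at 388, 447 and 432 CPM in the wild-type libraries, 473, 429.8 and 449 CPM in Lyl1 KO, 456, 423 and 306 CPM in Scl KO and 73.3, 60.1 and 46.8 CPM in the double-KO libraries. Scl loss and Lyl1 loss alone left it at overlapping levels, and the double KO held 14.3% of the additive value (-2.81 ± 0.25, adjusted p = 1.35e-04). Epor, the erythropoietin receptor, was at 142, 149 and 126 CPM in the wild-type libraries, 162, 144 and 130.0 CPM in Lyl1 KO, 129, 117 and 77.4 CPM in Scl KO and 37.9, 22.1 and 15.8 CPM in the double-KO libraries, which is 22.4% of the additive value in the double KO (-2.16 ± 0.38, adjusted p = 0.00577). Cd59a, which protects cells from complement, was at 51.7, 75.5 and 74.3 CPM in the wild-type libraries, 64.7, 66.8 and 54.8 CPM in Lyl1 KO, 31.1, 24.9 and 23.1 CPM in Scl KO and 3.42, 3.55 and 3.09 CPM in the double-KO libraries, with all groups that lack Scl below those that have it (-2.86 ± 0.23, adjusted p = 1.05e-04). Tmcc2 was already low in Scl KO. It was at 117, 124 and 94.3 CPM in the wild-type libraries, 169.8, 154 and 146 CPM in Lyl1 KO, 3.67, 3.21 and 3.53 CPM in Scl KO and 1.41, 0.797 and 1.09 CPM in the double-KO libraries, and its interaction was -2.14 ± 0.23 (adjusted p = 3.76e-04). Epb41 and Tfrc were also called.

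Globin transcripts had a summed level between 30.2 and 1495 CPM per library. Of 8 globins tested, 4 were called (50%, against 5.86% of all genes tested), each downward (median -3.03), and 4 were not. At an unadjusted p under 0.05, 7 were down and 1 was up. The number called was 6 without double KO 1, 7 without double KO 3 and 2 among genes with a mean of at least 5 CPM. Hba-a1, an adult alpha-globin, was at 242, 205 and 152 CPM in the wild-type libraries, 304, 240.1 and 201 CPM in Lyl1 KO, 55.9, 39.8 and 22.3 CPM in Scl KO and 0.536, 1.2 and 0.375 CPM in the double-KO libraries. Lyl1 KO overlapped with wild type, Scl KO was lower, and the double KO held 1.44% of the additive value (-6.12 ± 0.55, adjusted p = 1.35e-04). Hba-a2 and Hbq1b had interactions of -4.94 ± 0.89 (adjusted p = 0.00674) and -4.92 ± 0.72 (adjusted p = 0.00234). Both had few counts in the double KO (8 and 7 over its 3 libraries), and reads shared by the near-identical alpha-globin copies were not counted, so the values of single copies are uncertain. The beta-globins Hbb-bt and Hbb-y were highest in Lyl1 KO, at 787, 587 and 1017 CPM for Hbb-bt against 234, 238 and 215 CPM in wild type. In the double KO Hbb-bt ranged widely, at 181, 108 and 15 CPM. Their interactions of -3.17 ± 0.99 (adjusted p = 0.068) and -2.80 ± 0.85 (adjusted p = 0.0613) were not called.

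Of 11 heme synthesis genes tested, 2 were called down and 1 up (18.2% and 9.09%, against 5.86% and 3.51% of all genes tested), with a median of 0.22. The 2 became 1 without wild type 1, wild type 2, Lyl1 KO 1, Lyl1 KO 2, Scl KO 2 or double KO 2. Slc25a37, the mitochondrial iron importer mitoferrin 1, was called up. It was at 20.3, 17.3 and 12.6 CPM in the wild-type libraries, 13.4, 15.4 and 16.5 CPM in Lyl1 KO, 14.1, 13.4 and 16 CPM in Scl KO and 32.9, 34.7 and 32.3 CPM in the double-KO libraries, with all double KO libraries above the other 9 (1.35 ± 0.23, adjusted p = 0.00488).

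Transcription factors of the megakaryocyte and erythroid lineages were called in both directions. Of 27 tested, 5 were called down and 3 up (18.5% and 11.1%, against 5.86% and 3.51% of all genes tested). With the principal component term these were 10 and 5. The 5 became 3 when Lyl1 KO 2, Lyl1 KO 3, wild type 1 or wild type 2 was left out, 2 without double KO 2 and 1 without Lyl1 KO 1, Scl KO 1 or Scl KO 2, and the 3 became 1 without wild type 1, Lyl1 KO 2, Lyl1 KO 3, Scl KO 1, Scl KO 2 or double KO 2. Gata1, the GATA factor of red cells and megakaryocytes, was at 585, 609 and 517 CPM in the wild-type libraries, 692, 559 and 598 CPM in Lyl1 KO, 461, 441 and 311 CPM in Scl KO and 234, 132 and 107 CPM in the double-KO libraries. The double KO held 36.1% of the additive value (-1.47 ± 0.35, adjusted p = 0.024), and the call was lost without Lyl1 KO 1, Scl KO 1, Scl KO 2 or double KO 2 (adjusted p up to 0.0653). Nfe2, which drives platelet release, was at 906, 973 and 739 CPM in the wild-type libraries, 1021, 845 and 803 CPM in Lyl1 KO, 853, 804 and 488 CPM in Scl KO and 286, 263 and 135 CPM in the double-KO libraries (-1.68 ± 0.38, adjusted p = 0.0198). Its call was lost without Lyl1 KO 1, Scl KO 1 or Scl KO 2 (up to 0.0549). The repressor Bach1 was at 357 ± 62.1 CPM in Scl KO and 181 ± 19.7 in the double KO (-1.06 ± 0.20, adjusted p = 0.00889). Fli1, an ETS factor of megakaryocytes, had an interaction of -0.90 ± 0.25 (adjusted p = 0.0428), which was lost without any 1 of the same 9 libraries as for Ppbp (up to 0.109).

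Runx3 (ENSMUSG00000070691, chromosome 4, 135120652 to 135177990), a member of the Runx family that acts in lymphocytes and nerve cells, was called up. It was at 11.2, 9.41 and 18.3 CPM in the wild-type libraries, 12.2, 16.8 and 13.3 CPM in Lyl1 KO, 16.4, 21.8 and 35.9 CPM in Scl KO and 154, 315 and 206 CPM in the double-KO libraries. The double KO lay above all other libraries at 838% of the additive value (3.07 ± 0.48, adjusted p = 0.00303). Its relative Runx1 had no called interaction, at 145 ± 21.5 CPM in wild type against 179.8 ± 31.7 with both genes lost (0.11 ± 0.19, adjusted p = 0.772). Ikzf1 and Bcl11a were the other factors called up.

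Of 19 genes of the Scl complex and its E proteins, Tcf4 was called up and Gata1 down (5.26% each), a share near that of all genes tested. Without Lyl1 KO 1, Scl KO 1 or double KO 2 neither was called, without Scl KO 2 Gata1 was not called, without Lyl1 KO 3 Tcf4 was not called, and without Scl KO 3 or double KO 3 there were 2 called up. Lmo2 was at 169.9, 184 and 212 CPM in the wild-type libraries, 176, 179.9 and 189 CPM in Lyl1 KO, 336, 334 and 360.0 CPM in Scl KO and 549, 462 and 436 CPM in the double-KO libraries. Both groups that lack Scl lay above both that have it, and the interaction of 0.55 ± 0.16 was not called (adjusted p = 0.0552). Gata2, the GATA factor of early progenitors, and Cbfa2t3, a corepressor of the complex, had levels near each other in the 2 groups lacking Scl. Gata2 was at 79.9 ± 5.55 CPM in wild type, 23.7 ± 7.41 in Scl KO and 21 ± 6.69 in the double KO, with an interaction of -0.21 ± 0.36 (adjusted p = 0.778). Cbfa2t3 was at 162 ± 10.1, 28.6 ± 3.0 and 32.8 ± 12.5 CPM, with an interaction of 0.01 ± 0.28 (adjusted p = 0.99). The GATA cofactor Zfpm1 was not called (-0.50 ± 0.19, adjusted p = 0.132).

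Several genes that were low in 3 groups were high in the double KO. Jam2 (ENSMUSG00000053062, chromosome 16, 84774123 to 84825928), a junctional adhesion molecule of vessel cells, was at 2.08, 3.49 and 2.88 CPM in the wild-type libraries, 2.19, 3.35 and 2.76 CPM in Lyl1 KO, 3.87, 5.6 and 4.69 CPM in Scl KO and 87.1, 132 and 157 CPM in the double-KO libraries. The double KO was at 2706% of the additive value, with an interaction of 4.75 ± 0.37 (adjusted p = 9.34e-05). Artn, the nerve growth factor artemin, was at 0.416, 0 and 0.182 CPM in the wild-type libraries, 0.081, 0.301 and 0.128 CPM in Lyl1 KO, 0.348, 0.107 and 0.35 CPM in Scl KO and 29.7, 26.5 and 35.2 CPM in the double-KO libraries, with the other 9 libraries near the level that 3 counts give (0.0936 to 0.131 CPM). Its fitted interaction of 7.02 ± 1.03 (adjusted p = 0.00233), and those of other genes this low in 3 groups, depends on how near-empty groups are handled. Car8, a carbonic anhydrase-related protein, was at 0.0416, 0.305 and 0.328 CPM in the wild-type libraries, 0.203, 0.0753 and 0 CPM in Lyl1 KO, 0.812, 0.678 and 1.64 CPM in Scl KO and 31.1, 38.9 and 47.2 CPM in the double-KO libraries (6.46 ± 0.99, adjusted p = 0.00284). Klhl30 (6.93), Adm (5.98), Rnf152 (5.69) and Hic1 (5.50) had log2 interactions of the same kind from levels near or under 1 CPM, and limma-voom did not call Klhl30 (adjusted p = 0.0739), Adm (0.0647) or Rnf152 (0.108).

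Thy1, a surface protein of T cells, nerve cells and stroma, was at 2.0, 4.05 and 1.17 CPM in the wild-type libraries, 0.284, 1.13 and 0.723 CPM in Lyl1 KO, 0.542, 2.03 and 0.21 CPM in Scl KO and 26, 39.7 and 100.4 CPM in the double-KO libraries (7.61 ± 1.10, adjusted p = 0.00221). The RNA-binding splicing factor Rbfox2 was at 2.87, 3.09 and 2.7 CPM in the wild-type libraries, 0.891, 1.54 and 0.595 CPM in Lyl1 KO, 3.87, 2.14 and 3.11 CPM in Scl KO and 33.3, 27.6 and 62.4 CPM in the double-KO libraries. Lyl1 KO was its lowest group and the double KO its highest, so that the Lyl1 effect was -1.50 ± 0.39 with Scl and 3.76 ± 0.36 without it (5.25 ± 0.53, adjusted p = 2.44e-04). Synpo, an actin-associated protein, had the same form with 2.08 ± 0.76 CPM in wild type, 0.286 ± 0.243 in Lyl1 KO, 1.29 ± 0.208 in Scl KO and 6.14 ± 3.22 in the double KO (5.06 ± 0.74, adjusted p = 0.00231).

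Tmem273 and Gpr171 lay higher in Scl KO than in the groups that have Scl, and higher again in the double KO. Tmem273 was at 16.1, 11 and 14.2 CPM in the wild-type libraries, 15.5, 16.3 and 14.5 CPM in Lyl1 KO, 27.4, 27.8 and 34.9 CPM in Scl KO and 223, 222 and 165 CPM in the double-KO libraries (2.60 ± 0.23, adjusted p = 1.35e-04). The orphan receptor gene Gpr171 was at 1.21, 1.61 and 1.71 CPM in the wild-type libraries, 1.17, 0.942 and 1.28 CPM in Lyl1 KO, 11.9, 12.1 and 10.3 CPM in Scl KO and 59, 69.2 and 52.2 CPM in the double-KO libraries (2.82 ± 0.25, adjusted p = 1.35e-04). Ermp1, a metallopeptidase of the endoplasmic reticulum, showed no such step. It was at 79.3, 102 and 82.9 CPM in the wild-type libraries, 76.4, 74.9 and 85.7 CPM in Lyl1 KO, 66.6, 69.4 and 71.6 CPM in Scl KO and 225, 299 and 241 CPM in the double-KO libraries, with all 9 other libraries below the double KO and an interaction of 2.04 ± 0.18 (adjusted p = 1.35e-04).

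Among the falls outside the blood lists, Nefh, a neurofilament chain, had the smallest adjusted p after Prdx2 together with Thbs1. Nefh was at 37, 33.6 and 30.9 CPM in the wild-type libraries, 63.6, 41.5 and 31.1 CPM in Lyl1 KO, 9.86, 8.56 and 6.51 CPM in Scl KO and 0.268, 0.299 and 0.218 CPM in the double-KO libraries. Wild type and Lyl1 KO overlapped, and the double KO held 2.35% of the additive value (-5.39 ± 0.40, adjusted p = 8.52e-05). The Wnt inhibitor Apcdd1 was at 267, 301 and 203 CPM in the wild-type libraries, 291, 259 and 265 CPM in Lyl1 KO, 281, 236 and 117 CPM in Scl KO and 15.2, 9.53 and 8.18 CPM in the double-KO libraries (-4.35 ± 0.43, adjusted p = 2.44e-04). Neither single KO was separate from wild type, and the double KO lay at 4.91% of the additive value. Acer2, an alkaline ceramidase, was at 109, 83.5 and 51.2 CPM in the wild-type libraries, 87.2, 80.5 and 68.8 CPM in Lyl1 KO, 45.3, 42.4 and 18.7 CPM in Scl KO and 1.34, 0.996 and 0.499 CPM in the double-KO libraries (-5.19 ± 0.55, adjusted p = 3.29e-04). Odc1, the rate-limiting enzyme of polyamine synthesis, was at 369 ± 19.3 CPM in wild type and 427 ± 65.1 in Lyl1 KO, against 183 ± 15.1 in Scl KO and 46.1 ± 5.25 in the double KO (-2.20 ± 0.18, adjusted p = 1.06e-04). Rgs8 (-5.25), Lancl3 (-4.24), Tex15 (-4.74) and Ly6g6c (-4.42) were lower in the double KO than in any other library, at means under 1 CPM.

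Of 23 blood stem and progenitor genes, 4 were called up (Mecom, Ptprc, Spn and Hoxa9; 17.4%, against 3.51% of all genes tested) and 1 down (Slamf1). The 4 became 1 without Scl KO 1, 2 without Lyl1 KO 1, Scl KO 2 or double KO 2, and 2 without a filter on low counts. Mecom, a stem cell factor, was at 0.999, 0.741 and 0.693 CPM in the wild-type libraries, 0.486, 0.264 and 0.468 CPM in Lyl1 KO, 0.425, 0.82 and 0.455 CPM in Scl KO and 1.44, 4.55 and 2.81 CPM in the double-KO libraries (3.35 ± 0.67, adjusted p = 0.0103). Slamf1, a surface receptor used to sort stem cells and also found on megakaryocytes, was at 724, 815 and 627 CPM in the wild-type libraries, 808, 661 and 678 CPM in Lyl1 KO, 446, 410.4 and 264 CPM in Scl KO and 79.1, 31.9 and 19 CPM in the double-KO libraries (-3.09 ± 0.56, adjusted p = 0.00701). Kit, the stem cell factor receptor, was at 8.45, 6.41 and 4.08 CPM in the wild-type libraries, 4.98, 4.11 and 3.62 CPM in Lyl1 KO, 4.87, 4.1 and 3.67 CPM in Scl KO and 5.26, 7.14 and 16.6 CPM in the double-KO libraries and was not called (1.77 ± 0.55, adjusted p = 0.0662). Of 24 endothelial genes, 2 were called down (Lyve1 and Esam, 8.33%) and 1 up (Eng, 4.17%), shares near those of all genes tested. The median interaction was 0.78, from median Lyl1 effects of -1.92 with Scl and -0.51 without it. The summed list did not fall with Lyl1 loss where Scl was present, at 1354 to 1550 CPM in wild type and 1544 to 1767 in Lyl1 KO. None of its genes was called between those 2 groups. The call of Esam was lost without any 1 wild-type library, Lyl1 KO 1, Lyl1 KO 3, Scl KO 1, Scl KO 2 or double KO 2 (adjusted p up to 0.0739), and that of Eng without any of these, Lyl1 KO 2 or double KO 3 (up to 0.133). Lyve1 was at 20.8, 21.1 and 11.9 CPM in the wild-type libraries, 13.2, 9.98 and 11.6 CPM in Lyl1 KO, 16.8, 18.7 and 10.4 CPM in Scl KO and 2.95, 2.03 and 1.31 CPM in the double-KO libraries (-2.24 ± 0.44, adjusted p = 0.00983). Pecam1 (-0.74 ± 0.27, adjusted p = 0.117) and Cdh5, the cadherin of vessel junctions, were not called. Cdh5 was at 14.3, 19.7 and 1.46 CPM in the wild-type libraries, 0.486, 2.82 and 1.74 CPM in Lyl1 KO, 3.79, 9.99 and 3.04 CPM in Scl KO and 1.54, 2.56 and 1.5 CPM in the double-KO libraries, with overlapping groups and an interaction of 1.21 ± 1.12 (adjusted p = 0.56).

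Matrix genes were at 9286 to 11310 CPM in sum in Scl KO, against 5821 to 5851 in the double KO and at most 4769 elsewhere. Of 28 tested, 3 were called up (Thy1, Col18a1 and Fbn2, 10.7%) and 1 down (Lamc1, 3.57%), against 3.51% and 5.86% of all genes tested. The call of Fbn2 was lost without any 1 wild-type library, Lyl1 KO 1, Lyl1 KO 2, Scl KO 1, Scl KO 2 or double KO 2 (adjusted p up to 0.0775). Col18a1, the collagen that yields endostatin, was at 178, 144 and 158 CPM in the wild-type libraries, 87.4, 109 and 108 CPM in Lyl1 KO, 879, 813 and 903 CPM in Scl KO and 1199, 1215 and 1299 CPM in the double-KO libraries (1.17 ± 0.17, adjusted p = 0.00223). Lamc1, a laminin chain, was at 189, 196 and 158 CPM in the wild-type libraries, 195, 153 and 181 CPM in Lyl1 KO, 254, 218 and 152 CPM in Scl KO and 58.6, 48.9 and 54.3 CPM in the double-KO libraries (-1.91 ± 0.24, adjusted p = 0.00102).

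Of 11 lymphoid and cytotoxic genes, Gzmb was the called member (9.09% up, against 3.51% of all genes tested). It encodes granzyme B, the killing protease of cytotoxic cells, and was at 0, 0.0436 and 0.693 CPM in the wild-type libraries, 0.162, 0.188 and 0.213 CPM in Lyl1 KO, 0.348, 1.11 and 1.71 CPM in Scl KO and 159, 104 and 540.3 CPM in the double-KO libraries. Its interaction of 8.45 ± 2.07 (adjusted p = 0.0265) was the largest rise among the named genes, and the call was lost without wild type 3 (adjusted p = 0.723), without Lyl1 KO 1 (0.0561), without a filter on low counts (0.122) and in limma-voom (0.263). The summed lymphoid and cytotoxic list was at 237 to 908 CPM in the double KO and at most 147 elsewhere. Without Gzmb the sum was at 220.3, 133 and 368 CPM in the double KO, and wild type 1 at 147 CPM then lay above double KO 2. Its part in other genes called up was not tested. No interaction was called in the main edgeR fit among 22 macrophage, 16 neutrophil or 9 mast cell genes. The median interaction of the neutrophil list was 1.01. At an unadjusted p under 0.05 there were 2 down, 6 up and 1 up in these lists, beside 3740 of all 15399 genes tested. DESeq2 called 1 gene in each of these lists, and limma-voom none. Leaving out wild type 1 gave 3 macrophage genes called down and 1 mast cell gene called up, leaving out double KO 3 gave 1 macrophage gene down and 1 neutrophil gene up, leaving out wild type 3 gave 1 neutrophil gene up, and leaving out Lyl1 KO 1 gave 1 mast cell gene up. A mast cell gene was also called up with the principal component term and at a mean of at least 5 CPM.

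**Figure D4:**
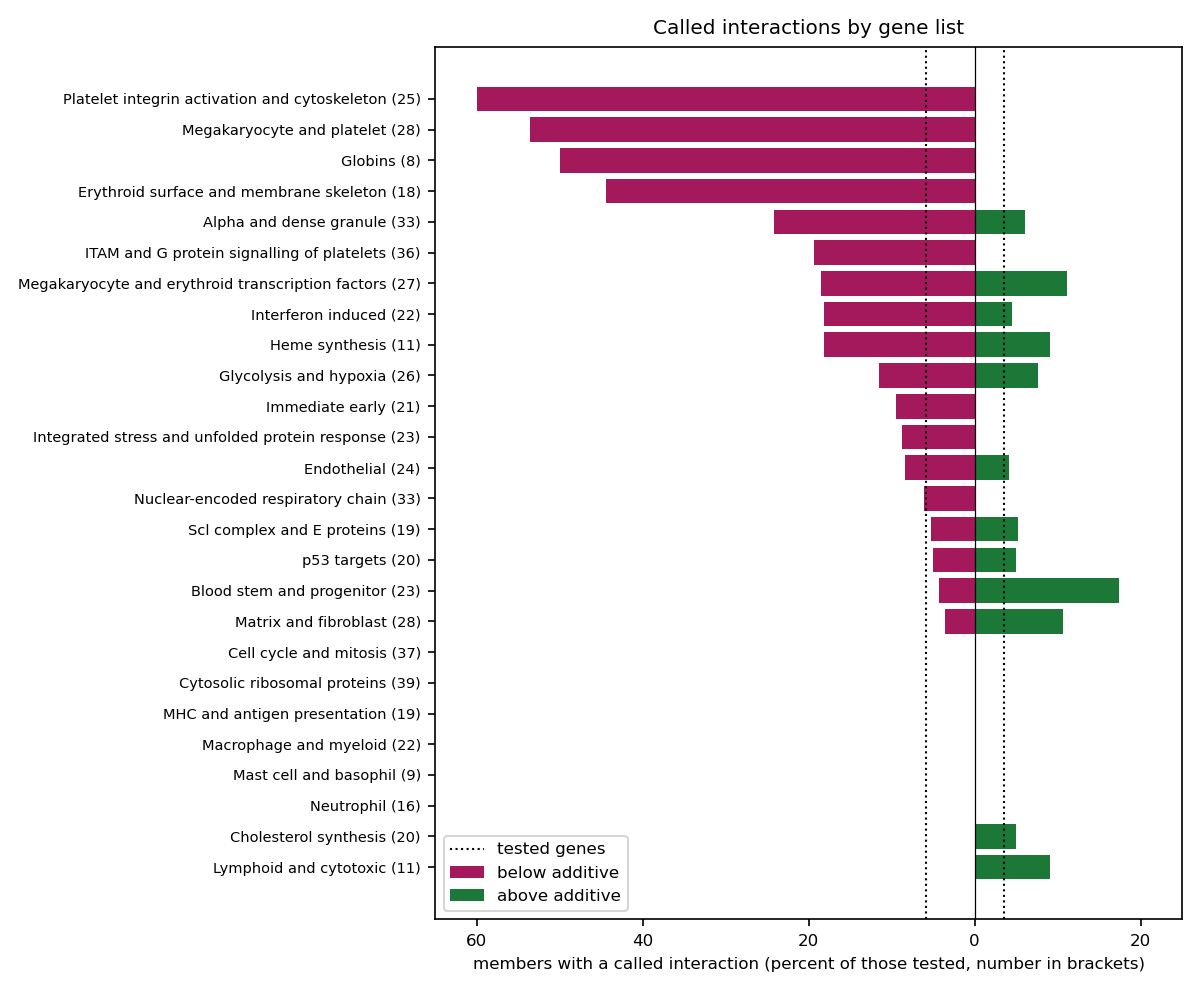
Percent of tested members with a called interaction below (left) or above (right) the additive value, for each list with at least 8 members tested (number in brackets). Dotted lines mark the shares over all genes tested, 5.86% and 3.51%. The lists of platelet integrin activation and cytoskeleton, megakaryocytes and platelets, globins, and red cell surface and membrane skeleton reach furthest to the left.

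The main edgeR fit called none of 37 cell cycle, 39 ribosomal protein or 19 MHC genes. At an unadjusted p under 0.05 there were 1 down, 2 up and 2 down in these lists, beside 3740 of all 15399 genes tested. DESeq2 called 1, 0 and 2 of the cell cycle, ribosomal protein and MHC genes, and limma-voom none. With the principal component term 19 ribosomal protein genes were called up, 8 cell cycle genes up and 1 down, and 1 MHC gene up and 3 down. Of MHC genes, 2 were called down without wild type 1, 1 down without Scl KO 3 and 1 up without double KO 1. A cell cycle gene was called down without Scl KO 3 or without double KO 1.

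Of 22 interferon-induced genes, 4 were called down and 1 up (18.2% and 4.55%, against 5.86% and 3.51% of all genes tested). Ifit1, an RNA sensor of antiviral defence, was at 14.6, 8.24 and 12.1 CPM in the wild-type libraries, 14.9, 13.5 and 23.1 CPM in Lyl1 KO, 16.4, 13.9 and 7.87 CPM in Scl KO and 2.31, 1.56 and 1.4 CPM in the double-KO libraries (-3.41 ± 0.46, adjusted p = 0.00153). The ubiquitin-like protein gene Isg15 was at 7.41, 6.41 and 13.3 CPM in the wild-type libraries, 8.06, 11 and 17.2 CPM in Lyl1 KO, 7.19, 7.24 and 8.08 CPM in Scl KO and 1.61, 2.22 and 1.94 CPM in the double-KO libraries (-2.38 ± 0.44, adjusted p = 0.00778). Ifitm3 (-0.95 ± 0.18, adjusted p = 0.00752) and Ifit2 were also down, and the RNA sensor gene Ifih1 was up (0.96 ± 0.19, adjusted p = 0.00983). Of 26 glycolysis and hypoxia genes, 3 were called down and 2 up (11.5% and 7.69%, against 5.86% and 3.51% of all genes tested). DESeq2 called 4 up. Ndrg1 was at 548, 559 and 466 CPM in the wild-type libraries, 733, 598 and 547 CPM in Lyl1 KO, 566, 536 and 330.4 CPM in Scl KO and 167, 102 and 119 CPM in the double-KO libraries (-2.14 ± 0.32, adjusted p = 0.00237). The entry enzyme of glycolysis, Hk1, was also down (-1.0 ± 0.21, adjusted p = 0.0147), while the collagen hydroxylase P4ha1 was up beside Vegfa (0.85 ± 0.15, adjusted p = 0.00575). Only 2 neural genes were tested, and Tubb3, the neuronal beta-tubulin, was the 1 called (50% down, against 5.86% of all genes tested). It was at 5.21 ± 1.97 CPM in Lyl1 KO and 0.428 ± 0.211 CPM in the double KO (-4.09 ± 0.63, adjusted p = 0.003).

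The smallest adjusted p of all belonged to a gene counted in the less than additive form. Its Lyl1 effect had opposite signs with and without Scl, but the effect without Scl fell short of the 1.5-fold margin. Prdx2 (ENSMUSG00000005161, chromosome 8, 84969587 to 84974834), a peroxiredoxin abundant in red cells, was at 65.9, 63.7 and 67.6 CPM in the wild-type libraries, 159.9, 156 and 158 CPM in Lyl1 KO, 63.6, 62 and 69.3 CPM in Scl KO and 45.3, 45.5 and 40.1 CPM in the double-KO libraries. Lyl1 KO was more than 2-fold above wild type, and the double KO was below every other library. The Lyl1 effect was 1.26 ± 0.08 with Scl and -0.57 ± 0.08 without it, an interaction of -1.84 ± 0.12 (adjusted p = 3.66e-05). Prdx2 lies 0.268 Mb from Lyl1, and Tdpx-ps1, a thioredoxin peroxidase pseudogene that may share its reads, was called in the same direction, so the count of either is uncertain. Junb, an immediate early gene 0.273 Mb from Lyl1, was at 192, 151 and 213 CPM in the wild-type libraries, 274, 311 and 291 CPM in Lyl1 KO, 167, 154 and 198 CPM in Scl KO and 109, 88.8 and 151 CPM in the double-KO libraries. The double KO libraries lay below every Lyl1 KO and Scl KO library and met only the lowest of wild type, and the interaction was -1.23 ± 0.26 (adjusted p = 0.0149). Within 10 Mb of Lyl1, 12 of 146 genes tested had a called interaction (8.22%), and within 10 Mb of Tal1, 17 of 174 (9.77%), beside 9.38% over all genes tested. Of the 11 genes called in Lyl1 KO against wild type, Prdx2, Tdpx-ps1 and Gipc1 had a called interaction.

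Promoter sequence was set beside these results because Scl, Lyl1 and GATA1 bind known short motifs. RefSeq promoters of 300 bases (250 before the start and 50 after it, GRCm38.p6) matched 10631 tested genes by symbol, with 13515 entries in all. The E-box CAGNTG was present in 44.5% of them, in 47.3% of 894 entries of genes called down and in 50.3% of 555 entries of genes called up. The GATA motif AGATAA, searched on both strands as was the E-box, was present in 6.68%, 7.72% and 5.77%. CTG and GATA spaced by 7 or 8 bases, a composite that can overlap the other motifs, was present in 3.37%, 3.91% and 4.14%. Of 41 called genes described here with a single promoter entry, 5 held both an E-box and a GATA motif: F2rl2, F2rl3, Pf4, Epor and Slc18a2. A match is a description of letters and not a bound site. The promoters of a platelet gene and a red cell gene called down and of a gene called up are shown 5′ to 3′ on the strand of the gene, with E-box and GATA motifs of either strand in capitals.
Pf4 (chr5:90772185-90772484, plus strand): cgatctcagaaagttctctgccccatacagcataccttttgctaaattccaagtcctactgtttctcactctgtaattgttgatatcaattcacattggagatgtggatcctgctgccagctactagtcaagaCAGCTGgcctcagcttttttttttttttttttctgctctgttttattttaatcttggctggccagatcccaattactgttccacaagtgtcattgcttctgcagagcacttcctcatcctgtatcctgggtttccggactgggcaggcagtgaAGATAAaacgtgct
Epor (chr9:21963527-21963826, minus strand): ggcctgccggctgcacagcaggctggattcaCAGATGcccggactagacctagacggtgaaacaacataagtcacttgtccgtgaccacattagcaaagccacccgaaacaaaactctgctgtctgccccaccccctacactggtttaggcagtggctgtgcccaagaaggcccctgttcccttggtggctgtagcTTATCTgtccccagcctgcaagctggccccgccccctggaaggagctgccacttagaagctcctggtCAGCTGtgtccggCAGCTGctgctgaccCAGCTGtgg
Slc18a2 (chr19:59260628-59260927, plus strand): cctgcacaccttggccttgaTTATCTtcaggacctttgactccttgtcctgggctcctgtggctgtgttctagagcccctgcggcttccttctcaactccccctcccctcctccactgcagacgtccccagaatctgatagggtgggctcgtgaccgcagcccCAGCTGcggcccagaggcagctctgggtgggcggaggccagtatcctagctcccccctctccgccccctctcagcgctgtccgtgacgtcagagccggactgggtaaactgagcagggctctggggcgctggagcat
The Pf4 promoter holds 1 E-box and 1 GATA motif, the Epor promoter 4 and 1, and the Slc18a2 promoter 1 and 1. These promoters were picked for holding both motifs and for covering both directions, so the shared pair has no bearing on direction.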

How the data were processed

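The 12 mouse libraries are labelled as pooled embryos of embryonic day 9.5. The only unit used is the raw count: the authors deposited a single matrix of reads for 49671 genes. Per the labels' protocols, total RNA was made into strand-specific libraries of polyadenylated RNA. The submitters' processing notes name STAR 2.5.2b, Subread 1.5.2, limma and the GRCm38 build. Per the file headers, featureCounts took reads of the reverse strand on Ensembl 87 gene models, and reads mapping to several places were not counted, which can lower the values of near-identical genes. Trimming is not given in the sources used here. Titles gave each library's group and number. Replicate libraries differed by more than sampling noise and were counted separately.

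edgeR 4.0.16 in R 4.3.3 was run with its default expression filter (at least 10 counts, 15 in total), TMM factors and a robust quasi-likelihood F-test. All 12 libraries shared a fit whose sole term was group. Genes under an adjusted p of 0.05 are called. The common biological coefficient of variation was 0.234. The counts of 3 behind the limit of a 0 cover counting error only. The test was checked on simulated data. The additive level is the product of the single KO means over the wild-type mean.

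The members, the 30 gene lists and the naming rule were chosen with earlier results of these data known. The rule named 106 genes: Lyl1 and Tal1, the 12 largest called rises and falls and the 10 smallest adjusted p among called genes with a mean of at least 1 CPM (predicted genes, pseudogenes, Y-linked genes and Xist left out), in each list as many as 4 called genes by lowest adjusted p, and 22 by name. Of the 91 called, those kept without any 1 library and with over 3 counts in each group are described, with those listed by name and Gzmb, which was chosen after its values were seen. No set test was run. Alternatives were RLE and upper-quartile factors, other filters, the replicate number as a block, a term for the side of the second principal component, non-robust estimation, DESeq2 1.42.0, limma-voom (limma 3.58.1), each library left out and, added after the data were seen, a term for Y-linked transcripts. Some genes that the rule or a list holds are not reported here.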

Additional observations from a re-analysis of the deposited data

Results flagged for a closer look

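The effect of Lyl1 loss differed between libraries with and without Scl, by the test of the difference itself, in 1444 genes. The values below are log2 interactions of the genes described above, and no explanation was weighed for them.

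Platelet genes below the additive value were Slfn14 (-4.21), Thbs1 (-3.89), P2ry12 (-3.77), Tubb1 (-3.03), Tuba4a (-2.17), Gp1bb (-2.01), F2rl2 (-1.98), Ppbp (-1.78), Fermt3 (-1.45), Vwf (-1.36), Was (-1.30), F2rl3 (-1.19), Tgfb1 (-1.12), Bin2 (-1.02), Pf4 (-0.94) and Fyn (-0.92). Red cell genes below it were Hba-a1 (-6.12), Hba-a2 (-4.94), Hbq1b (-4.92), Cd59a (-2.86), Sptb (-2.81), Epor (-2.16), Tmcc2 (-2.14) and Prdx2 (-1.84). The transcription factors below it were Nfe2 (-1.68), Gata1 (-1.47), Junb (-1.23), Bach1 (-1.06) and Fli1 (-0.90).

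Other genes below the additive value were Nefh (-5.39), Rgs8 (-5.25), Acer2 (-5.19), Tex15 (-4.74), Ly6g6c (-4.42), Apcdd1 (-4.35), Lancl3 (-4.24), Tubb3 (-4.09), Ifit1 (-3.41), Slamf1 (-3.09), Isg15 (-2.38), Lyve1 (-2.24), Odc1 (-2.20), Ndrg1 (-2.14), Lamc1 (-1.91), Hk1 (-1.0) and Ifitm3 (-0.95).

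Genes above the additive value were Gzmb (8.45), Thy1 (7.61), Artn (7.02), Klhl30 (6.93), Car8 (6.46), Adm (5.98), Rnf152 (5.69), Hic1 (5.50), Rbfox2 (5.25), Synpo (5.06), Jam2 (4.75), Mecom (3.35), Runx3 (3.07), Gpr171 (2.82), Tmem273 (2.60), Ermp1 (2.04), Vegfa (1.54), Slc25a37 (1.35), Slc18a2 (1.23), Col18a1 (1.17), Ifih1 (0.96) and P4ha1 (0.85).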

How the results depend on the processing

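No called interaction changed sign in any alternative in which its gene was tested, and 63 of the 91 named calls were kept whichever library was left out. With 1 library left out, 671 to 1925 genes were called, 241 to 641 up and 419 to 1284 down. Called members then numbered 8 to 24 for megakaryocytes and platelets and 5 to 19 for platelet integrin activation and cytoskeleton. They numbered 5 to 7 for the red cell membrane, 3 to 7 for globins and 1 to 6 for progenitors (up). The more than additive forms held 510 to 1353 genes, the less than additive form 48 to 215 and opposite Lyl1 effects 70 to 163. Lyl1 KO against wild type gave 5 to 41 calls and the double KO against Scl KO 1645 to 3222. The cause of these shifts was not tested. With a term for the sign of the second principal component, 3199 genes were called (1310 up, 1889 down), 25 of the megakaryocyte and platelet list, 7 progenitor genes up and 30 genes within 10 Mb of Lyl1, and the forms held 1744, 544 and 312 genes in the same order. DESeq2 called 2262 (881 up, 1381 down), 8 progenitor genes up and 20 genes near Lyl1. Without a filter on low counts 2 progenitor genes were called up. With a mean of at least 5 CPM, 2 globins and 45 genes with opposite Lyl1 effects remained, since fewer low genes were tested. RLE factors, upper-quartile factors, non-robust estimation and the Y-linked term (1371 called) stayed within 1.5 times of each of these counts in the main fit. So did limma-voom (1242 called) for the counts of called interactions. Forms and simple effects were not computed with limma-voom or DESeq2. The Y-linked term kept 1244 of the 1444 calls, and with it the double KO against Scl KO gave 2089. Y-linked transcripts were near absent from every wild-type and Scl KO library, so this term overlaps in part with Lyl1 loss. The principal component term comes from the same counts and overlaps in part with group, since every Lyl1 KO library lay on its negative side. With the replicate number as a block, 2100 genes were called and the less than additive form rose to 253. The numbers were not taken to pair the libraries, since the titles do not say that they mark a litter or batch. Even so, 13 of 18 same-numbered pairs deviated together (r above 0.1, range -0.125 to 0.556). Differently numbered pairs ranged from -0.466 to 0.345, and 8 of 12 libraries correlated best with their own number. A shared origin of same-numbered libraries was not tested. With the block, 21 megakaryocyte and platelet genes were called down. It also called 12 genes of platelet ITAM and G protein signalling, 3 endothelial genes up and 4 down, and 2 MHC genes down. Named genes not called in the report were called in some alternatives: Lmo2 in 5 (DESeq2, the block, upper-quartile factors, at least 5 CPM and the principal component term), Itga2b and Itgb3 in 4 (DESeq2, the block, no filter and that term), Kit in DESeq2 and with that term or the Y-linked term, Pecam1 with the block and that term, Hbb-bt and Hbb-y in DESeq2 and with the Y-linked term, and Tal1 with the principal component term (adjusted p = 0.0242). At under 1 CPM the fitted interaction rests on few counts.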

Other observations

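The cholesterol, stress response, p53, respiratory chain and immediate early lists had, in each direction, either no call or calls in 5% to 9.52% of members, against 5.86% down and 3.51% up of all genes tested. Of 20 cholesterol synthesis genes tested, Insig1 was called up, and none was called without Lyl1 KO 1 or without Scl KO 1. Of 23 genes of the integrated stress and unfolded protein responses, Ddit3 and Dnajb9 were called down, with none left without Lyl1 KO 1 and 1 without Lyl1 KO 3. Of 20 p53 targets, Fas was called up and Bbc3 down. Neither was called without wild type 1, Lyl1 KO 1, Lyl1 KO 2, Scl KO 1, Scl KO 2, double KO 2 or double KO 3. Fas was called in 4 and Bbc3 in 1 of the 12 fits that left out a library. Of 33 respiratory chain genes, Ndufs4 and Cox5a were called down. That count was 0 without Lyl1 KO 1, 1 without Lyl1 KO 3, Scl KO 1 or Scl KO 2, and 4 without double KO 3. Of 21 immediate early genes, Junb and Zfp36 were called down, and Junb alone without Scl KO 2.

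Few markers of embryonic tissues could be tested: 4 of 18 heart genes, 2 of 18 neural genes and 2 of 17 somite genes. Ryr2 and Tnni3 were the heart genes called up (50% of the 4 tested, against 3.51% of all genes tested). Neither was called without Lyl1 KO 1 or without Scl KO 1, and Tnni3 was called in only 2 of the 12 fits that left out a library. The neural gene called down was Tubb3, given above. The summed heart list was at 6.59 to 8.34 CPM in the double KO, 1.90 to 3.42 in Scl KO, 2.04 to 2.88 in Lyl1 KO, and 2.42, 2.66 and 10.8 in wild type, where the third library was the highest of all 12. No somite gene was called by edgeR, DESeq2 or limma-voom, and 0 had an unadjusted p under 0.05. No sex-linked gene was called by edgeR, with 0 at an unadjusted p under 0.05, while DESeq2 called 1 down.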
